A study of Caenorhabditis elegans with 2 samples.

Results

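The genes described here are 7 histone chaperone genes of *Caenorhabditis elegans*, *nasp-1*, *nasp-2*, *unc-85*, *asfl-1*, *chaf-1*, *chaf-2* and *hira-1*, among 19985 protein-coding genes. They were examined for binding of EFL-1, a worm E2F transcription factor, by chromatin immunoprecipitation followed by sequencing (ChIP-seq). The gene list was drawn up by name with earlier EFL-1 peak values of these data known, so how often and how strongly its members were bound is given as a description, with no test. For each gene, all regions whose summit lay in the gene body or up to 2000 bp upstream were taken, a stretch called the gene's window below.

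The series held 1 group of 2 biological replicates, chromatin of whole young adult worms of both sexes. The worms were of strain YL445, an unc119(ed3)III mutant carrying the insertion vrIs81 with *unc-119* (+), in which the *pie-1* promoter drives EFL-1 tagged with GFP and FLAG, followed by the *efl-1* 3′UTR. The *pie-1* promoter is known for activity in the germline, the endogenous *efl-1* gene was not stated to be removed, and the labels name no second line. The labels give the antibody as efl-1 in one field and the target as eGFP-efl-1 in another, so untagged EFL-1 may also have been precipitated. No comparison group, control library or expression measurement was analysed here, and the depth of sequencing is unknown.

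Histone chaperones carry newly made or displaced histones and hand them to DNA. NASP proteins keep H3 and H4 soluble, ASF1 takes up H3-H4 dimers, and ASF1 passes them to one of the deposition complexes. CAF-1, which binds the sliding clamp PCNA, places histones behind the replication fork, while HIRA places the variant H3.3 without replication. E2F factors bind DNA together with a DP partner and are known in animals as regulators of S phase genes, and in the worm EFL-1 is also part of the DREAM complex with the retinoblastoma homologue LIN-35.

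All 7 genes had a peak in the authors' optimal list, the 2498 regions that the authors kept after an irreproducible discovery rate step. The same held for 3269 protein-coding genes (16.4%). The list was the 2498 highest regions of the pooled list by signal. Of them, 2440 were overlapped by a region in the full lists of both replicates. Each of those lists has 30000 regions and also holds background, so this overlap is a loose measure. With a stretch from 1000 bp upstream to 200 bp downstream of an annotated transcript start, called the promoter window, the counts were 7 of 7 and 12.6% of all genes. The strongest peak of each gene, its lead peak, had a signal value (the authors' score for a region, on a scale that is not stated) from 56.9 to 1242, with a median of 201. The median over the whole optimal list was 71.1, but that list takes every peak and not only the highest per gene. The 2 medians are thus not like for like. Ranks of the lead peaks ran from 5 to 1588, and 4 of the 7 lay in the upper 20% of the list. The 7 windows did not overlap, so no peak was counted for 2 members. All lead summits lay upstream of the gene, between -430 and -142 bp from the annotated 5′ end (negative values are upstream), with a median of -211 bp. Optimal summits in general also lay upstream, with a median of -170 bp from the nearest protein-coding 5′ end, so this position does not set the members apart. Of the 7 lead summits, 6 were intergenic, and the share over all optimal summits was not counted. In the upper 50% of the list 6 members had a summit (9.40% of all genes). With each summit given only to the protein-coding gene of the nearest 5′ end there were also 6 (10.4%), and *asfl-1* was the gene lost in both.

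The E2F core was the sequence searched at the summits. It was taken as TTNNCGC on either strand, where each N is C or G, and overlapping matches were merged into 1 site. The stretches below show the core sites within 50 bp of the optimal summits of *nasp-2*, *unc-85*, *nasp-1* and *hira-1*, since such a site is the feature that most of the lead peaks share. Each is 30 bases of WBcel235 (ce11) from RefSeq, read 5′ to 3′ on the strand of the named gene, with the core in capitals.
nasp-2, site at the summit: cagaatgcacTTGGCGCGAAattttgcaat
nasp-2, site nearer the gene: aaaaacgataagGCGGGAAaatttcgcatt
unc-85, site at the summit: tccaccggtacGCGCCAAtcgccaccattt
unc-85, site nearer the gene: cttacataattGCGGGAAtttttgatttct
nasp-1, site near the summit: cattgcacagcGCGGGAAaatttgttgttg
hira-1, lead peak: tttttttgtgtTTCCCGCttcgcacatttg
hira-1, distal peak: ttatttgaatTTCGCGCGAAaatgagtgtt

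In that order, they lie at chrV:13312446-13312475, chrV:13312414-13312443, chrII:4701827-4701856, chrII:4701860-4701889, chrII:11106188-11106217, chrIII:5190877-5190906 and chrIII:5190354-5190383. The *nasp-2* stretches are on the minus strand of the genome and the others on the plus strand. At the *nasp-2* summit and at the distal *hira-1* peak, 2 matches in opposite directions overlap to form 1 site of 10 bases.

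The lead peak of highest signal lay at *nasp-2*, 1 of the 2 *nasp* genes, whose products hold the pool of soluble H3 and H4, while that of *nasp-1* was lower than that of *unc-85*. At *nasp-2* (WBGene00008218, chromosome V, 13310186 to 13312260, minus strand) the lead peak, chrV:13312267-13312665, had a pooled signal of 1242 and ranked 5 of all regions. Replicate 1 gave it a signal of 326 and rank 7, and replicate 2 a signal of 915 and rank 5. The summit lay at -200 bp in intergenic DNA. The 2 replicate summits were 6 bp apart, and the overlapping pair of cores was centred 0 bp from the pooled summit. The window held 2 core sites, and both lay within 50 bp of that summit. A weaker optimal peak, at -993 bp, had a signal of 39.0 and rank 2236, and no core within 50 bp of its summit. It was the lowest of the members' optimal peaks. It also fell at -320 bp from the divergently transcribed *C50B6.3*, whose 5′ end is 1313 bp from that of *nasp-2*. The lead summit lay in the window of *C50B6.3* as well, at -1113 bp from its 5′ end, but outside its promoter window.

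*nasp-1* (WBGene00007500, chromosome II, 11106612 to 11108070, plus strand) had 1 optimal peak, chrII:11106043-11106330, with a signal of 401.5 and rank 141. Its ranks were the same in the replicates, 138 in each, with signals of 107 and 295. Its summit, at -430 bp, was the farthest of the lead summits from its gene. It was also the only one of them inside an annotated transcript, 1 bp from the 5′ end of the non-coding RNA gene *C09H10.20*, which is on the same strand. The peak list does not separate a promoter of that transcript from one of *nasp-1*. The next gene, *apc-17*, which encodes a subunit of the anaphase-promoting complex, starts 57 bp after the end of *nasp-1*, and the same summit fell at -1946 bp from its 5′ end. Of 3 core sites in the *nasp-1* window, the one centred at -410 bp lay 20 bp from the summit. A second intergenic site, nearer the gene at -125 bp, lay 305 bp from any optimal summit.

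**Figure D1:**
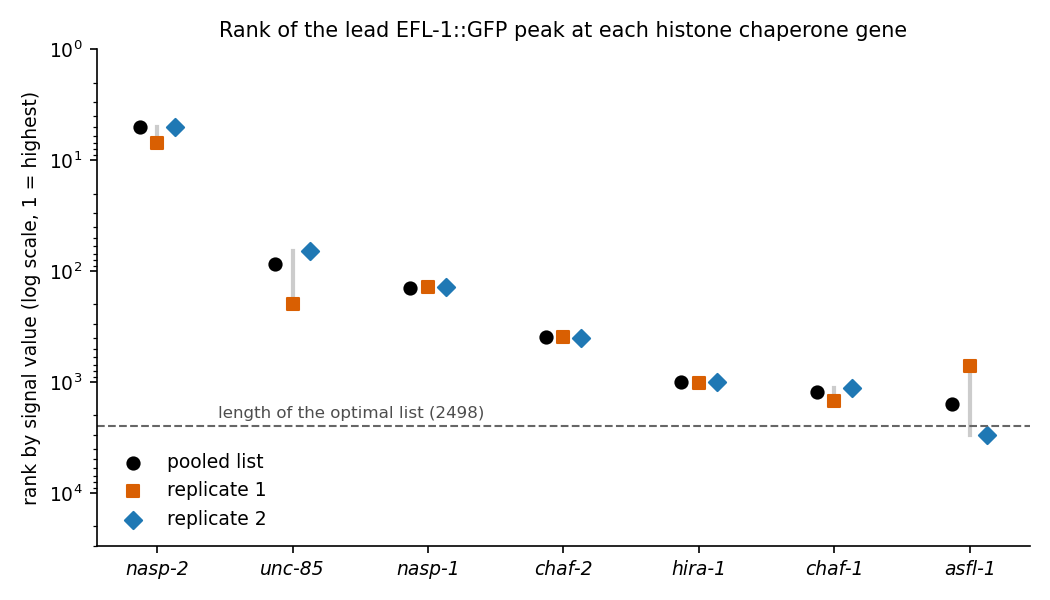
Rank by signal value (log scale, 1 is the highest) of the lead peak at each gene in the pooled list, replicate 1 and replicate 2, 1 point per list; the grey line joins the lowest and highest rank. The 3 ranks stay close at *nasp-2*, *nasp-1*, *chaf-2* and *hira-1*, and at *asfl-1* replicate 2 falls below the dashed line at 2498, the length of the optimal list.

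The 2 ASF1 genes had lead peaks of unequal strength, with pooled signals of 514 and 56.9. *unc-85* encodes the ASF1 protein known for its part in the divisions of neuroblasts, and *asfl-1* its relative. *unc-85* (WBGene00006817, chromosome II, 4702069 to 4703219, plus strand) had its lead peak at chrII:4701718-4701997, with a signal of 514, rank 86 and the summit at -223 bp. Replicate 1 gave 88.8 and rank 198, and replicate 2 gave 425 and rank 66. It thus stood higher in replicate 2 than in replicate 1. Core sites lay 5 and 28 bp from the summit, while 3 others in the window lay in coding exons, 2 of *unc-85* and 1 of *scc-1*. No other protein-coding gene had this summit in its window. The gene upstream on the same strand is *scc-1*, which encodes the mitotic cohesin kleisin and ends 1074 bp before *unc-85*.

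At *asfl-1* (WBGene00007277, chromosome I, 9658274 to 9660080, plus strand) the lead peak, chrI:9657895-9658230, had a signal of 56.9 and rank 1588. Its signal was 34.8 with rank 726 in replicate 1 and 21.6 with rank 3037 in replicate 2. It was the 1 lead peak outside the 2498 highest regions of a replicate. The ranks of the 2 ASF1 genes did not overlap, at 66 to 198 for *unc-85* and 726 to 3037 for *asfl-1* over the replicates. No E2F core lay within 50 bp of the *asfl-1* summit or anywhere in the region. The only core site of the window was 191 bp from the summit, in a UTR of *lab-1*. That gene, known for protecting cohesion of meiotic chromosomes, runs in the opposite direction, and its 5′ end is 251 bp from that of *asfl-1*. The summit lay at -211 bp from *asfl-1* but -40 bp from *lab-1*, so the peak was nearer to *lab-1*.

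*unc-85* also had an optimal peak at its 3′ end, chrII:4703042-4703377, with a signal of 58.9 and rank 1528. Its summit was at 1141 bp from the 5′ end, in the annotated 3′UTR, and had no core within 50 bp. The convergent gene *F10G7.9* lies 34 bp beyond the end of *unc-85*. Replicate 1 ranked it 1375 with the summit at the same base. The best overlapping region of replicate 2 ranked 1407, with its summit at 1179 bp, past the end of the gene. This was the only optimal peak within the transcribed part of a member.

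CAF-1, the complex that assembles nucleosomes on newly copied DNA, has its large subunit encoded by *chaf-1* and its middle subunit by *chaf-2*. At *chaf-2* (WBGene00022141, chromosome I, 1823447 to 1825967, plus strand) the lead peak, chrI:1823195-1823408, had a signal of 201 and rank 396. The ranks in the replicates, 397 and 401, were almost the same, with signals of 55.8 and 144. The summit lay at -142 bp, the nearest of the lead summits to its gene, and a core site at chrI:1823322-1823328 was 20 bp from it. The other 4 core sites of the window, at -1536 to -983 bp, lay in introns and a coding exon of *Y71G12B.30*. This divergent gene shared the peak, at -357 bp from its own 5′ end.

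*chaf-1* (WBGene00011532, chromosome I, 9077565 to 9080024, minus strand) had 1 optimal peak, chrI:9080019-9080354, with a signal of 72.4, rank 1235 and the summit at -163 bp. Replicate 1 gave 17.8 and rank 1488, and replicate 2 gave 57.95 and rank 1132. The *chaf-1* ranks, like those of *asfl-1*, did not overlap the ranks of the other gene of the pair. The replicate summits were 63 bp apart, the widest gap among the lead peaks. No core lay in the region. The 2 core sites of the window were in coding exons, 893 bp or more from any optimal summit. The peak was shared with no other gene, and the next gene upstream ends 5326 bp away.

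HIRA, encoded by *hira-1* (WBGene00019627, chromosome III, 5191124 to 5196088, plus strand), deposits H3.3. This gene had a pair of upstream optimal peaks, each with an E2F core. The lead peak, chrIII:5190841-5190942, had a signal of 90.6, rank 999 and its summit at -245 bp from the first of 3 annotated transcript starts, with a core site 12 bp away. Replicate 1 gave 25.7 and rank 1015, and replicate 2 gave 64.5 and rank 1003. The distal peak, chrIII:5190208-5190543, had a pooled signal of 61.2 and rank 1456, and its summit at -748 bp lay 8 bp from the site of overlapping cores printed above. It ranked 1848 with a signal of 14.5 in replicate 1, and 1519 with a signal of 43.1 in replicate 2. Both replicates thus held both peaks, in the same order. The 2 remaining core sites, in an intron and a coding exon of *hira-1*, were 2548 bp or more from an optimal summit. Neither peak was shared, and the next gene upstream, *K10D2.8*, is on the same strand and ends 948 bp before *hira-1*.

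**Figure D2:**
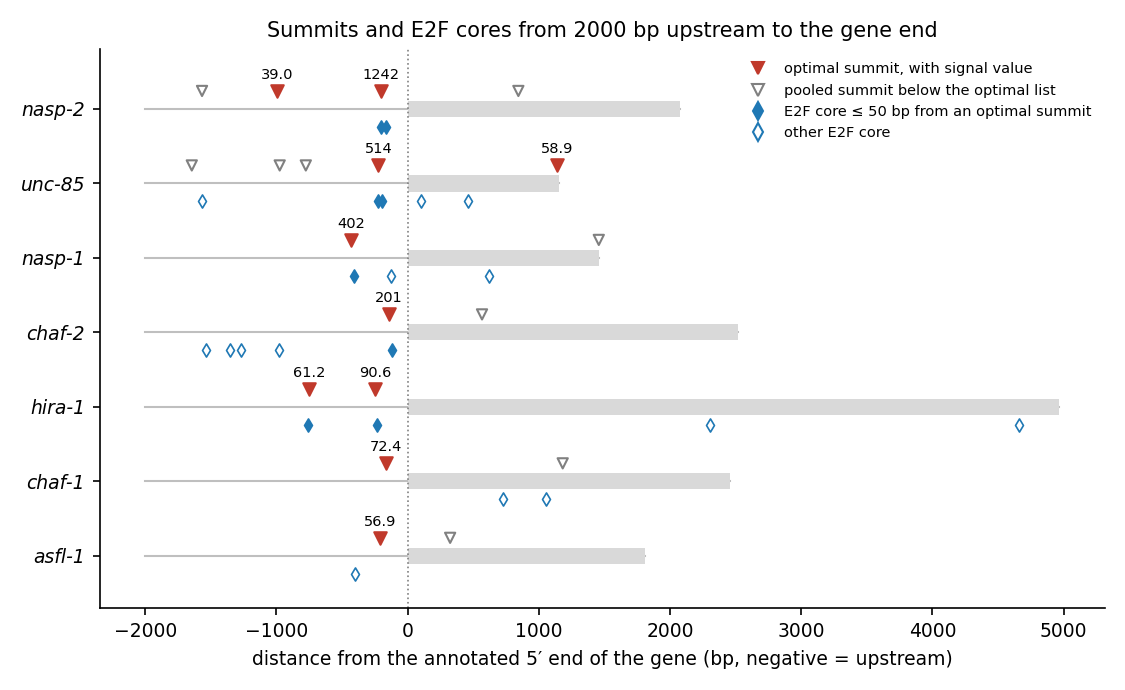
Map of each gene's window to scale, with the distance from the annotated 5′ end in bp on the x axis and the gene body as a grey bar. Red triangles are optimal summits with their signal value, open triangles other pooled summits, filled diamonds E2F core sites within 50 bp of an optimal summit and open diamonds other core sites; filled diamonds sit only upstream of the genes, between -756 and -122 bp.

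Across the 7 windows there were 10 optimal peaks, 2 at each of *nasp-2*, *unc-85* and *hira-1* and 1 at each of the other 4 genes. Holding 2 or more was seen at 2.00% of all protein-coding genes. The count takes every summit in a window. The second peak of *nasp-2* also lay in the promoter window of *C50B6.3*, and that of *unc-85* at the 3′ end of the gene. In the pooled relaxed list of 30000 regions, which also holds background, each member had a region, as did 67.6% of all genes. The members' 19 regions, the 10 optimal peaks among them, were spread at 2 to 5 per gene. The median per member was 2, against 1 over all genes. The relaxed lists of replicates 1 and 2 gave the members 21 and 23 regions. The members' lowest optimal peak was the 39.0 of *nasp-2*, at rank 2236 of the 2498 on the list, whose lowest signal was 34.9. The members' highest region outside it was at *unc-85*, at -975 bp, with a signal of 25.7 and rank 3470.

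The replicates were compared through their own 2498 highest regions. In replicate 1 all 7 members had such a region in the window, and in replicate 2 all but *asfl-1*. The 6 members with one in both replicates stand beside 13.0% of all protein-coding genes. Lead summits of the 2 replicates lay 6 to 63 bp apart, with a median of 16 bp. Over the 2440 optimal peaks overlapped by a region in the full lists of both replicates, the median was 23 bp.

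At 5 of the 7 lead summits, and at 6 of the members' 10 optimal summits, an E2F core lay within 50 bp, in windows of 101 bp. The share over all 2498 optimal summits was 30.7%, a set not limited to the highest peak per gene. It was 52.8% at ranks 1 to 500, where *nasp-2*, *unc-85*, *nasp-1* and *chaf-2* fall, so 30.7% is not a like comparison for lead peaks. Of windows centred 500 bp to either side of all optimal summits, 4.10% held a core. Of the 14 such flanking windows of the members, 1 held a core, and it was that of the distal *hira-1* peak. The longer form of the core, with 1 more T at its start, was present at 3 of the 7 lead summits, those of *nasp-1*, *nasp-2* and *hira-1*, against 17.1% of all optimal summits. TTNGAA on either strand, where N is C or T, resembles the cell cycle homology region of DREAM targets. It lay within 50 bp of 1 lead summit, that of *hira-1*, and of 3 of the members' 10 optimal summits, against 38.8% of all optimal summits. In the stretch from 250 bp before to 50 bp after the annotated 5′ end, an E2F core was present at the same 5 genes. Of all protein-coding genes, 9.20% had one there. At *nasp-2*, *unc-85*, *chaf-2* and *hira-1* the sites in that stretch were the ones already counted at the lead summits. At *nasp-1* it was the site at -125 bp, since the one at the summit, at -410 bp, lies outside that stretch. The genes were chosen with peak values known, so the count of 5 is a description and not separate support. TTNGAA was present in that stretch at 5 of 7 members and at 68.9% of all genes.

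The members' windows held 22 core sites, of which 8 lay within 50 bp of an optimal summit. In the whole genome this was true of 905 of 37990 sites (2.38%). Of the members' 8 sites, 7 were intergenic and 1, at *nasp-1*, lay in the exon of the non-coding RNA. Of the other 14 sites, 8 lay in coding exons, 4 in introns, 1 in a UTR and 1 in intergenic DNA. These shares are a description, since the same peaks were used to choose the genes.

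Core content and rank went together along the whole list. An E2F core lay within 50 bp of 52.8% of the summits ranked 1 to 500, where *nasp-2*, *unc-85*, *nasp-1* and *chaf-2* fall. The share was 34.4% at ranks 501 to 1000, where *hira-1* falls, then 25.6% and 23.0% in the next bins, which hold *chaf-1* and *asfl-1*. The width of regions changed along the same order. In the optimal list 1480 regions (59.2%) had 1 common width of 336 bp, and in 1479 of these the summit lay within 1 bp of the centre. That width was found in 1.40% of ranks 1 to 500 and in 98.4% of ranks 1501 to 2000. The lead peaks of *chaf-1* and *asfl-1*, which had no core, were the 2 lead peaks of that width. The part of region width in the absence of a core near their summits was not tested.

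**Figure D3:**
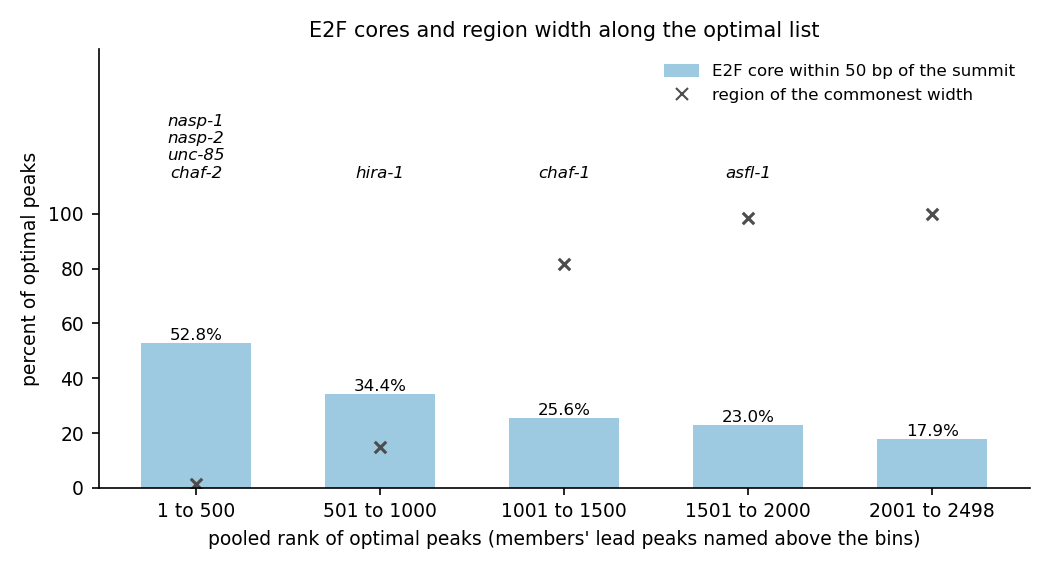
Bars give the percent of optimal peaks, in bins of pooled rank, whose summit had a core at 50 bp or less, and crosses the percent with the commonest width of 336 bp; the members whose lead peak falls in a bin are named above it. The core share falls from 52.8% in the first bin to 17.9% in the last, and *chaf-1* and *asfl-1* fall in bins where most regions have the common width.

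Peaks ranked next to the lead peaks belonged to genes of varied kinds. Next above and below *nasp-2* were *pie-1* (signal 1302) and *sgo-1* (1221), which encodes a shugoshin. The transgene carries a further copy of the *pie-1* promoter, and its part in the *pie-1* signal was not tested. Next to *unc-85* were the eggshell gene *cbd-1* (514) and the pair *C25D7.15* and *mcm-3* (512), the latter encoding a subunit of the replicative helicase. Around *nasp-1* lay *mafr-1* (402), a repressor of RNA polymerase III, and *smc-5* (401), a gene of DNA repair. For the weaker members the neighbours with a protein-coding gene in the promoter window were *Y32H12A.8* (201.5) at *chaf-2*, *fkb-2* (90.4) at *hira-1* and the ribonuclease H gene *rnh-2* (56.9) at *asfl-1*. The other neighbouring peaks of these, and both of *chaf-1*, had none in that window.

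Other genes of histone assembly and exchange were listed by name for comparison, again with some of their values known. Of 32 names, 30 matched a gene, and 23 of these had an optimal summit in the window (background 16.4%). Their 22 distinct lead peaks, *rba-1* and *lin-53* sharing 1, had a median signal per gene of 161, and at 11 of the 23 genes the lead summit had a core at 50 bp or less. The highest were *hcp-3*, the gene of the centromeric H3 variant, with 1133, *mcm-2*, whose product in other animals binds histones at the fork, with 1020, the nucleosome spacing remodeller gene *isw-1* with 729, and the PCNA gene *pcn-1* with 605. *lin-53* and *rba-1*, which encode histone-binding proteins of the kind that completes CAF-1, followed with 535. Their shared peak lay at -220 bp from *lin-53* and at -1873 bp from *rba-1*, and had no core. It ranked 139 in replicate 1 and 67 in replicate 2, above both *chaf-1* and *chaf-2*.

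The FACT genes, whose products loosen and restore nucleosomes on transcribed and replicating DNA, were bound in 3 of 3 cases. Beside this and the counts that follow stands 16.4% of all protein-coding genes. *hmg-4* had 355, *hmg-3* 284 and *spt-16* 68.2, each with a core at the summit. All 3 genes of centromeric histone and its loading were bound, as were 6 of 8 genes of H2A.Z exchange. Both fork genes whose names matched were bound too, while the listed fork gene *tonsl-1* had no match. Genes for H3.3, the histone that HIRA deposits, were bound in 2 of 5 cases. *his-72* had 80.7 and *his-74* 70.9, without a core, while *his-71*, on chromosome X, had at best a background region with a pooled signal of 7.43 and rank 27084. The remodeller gene *xnp-1* (34.2, rank 2536) and the chaperone gene *nap-1* (33.0, rank 2630) fell just outside the optimal list, which ended at 34.9.

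**Figure D4:**
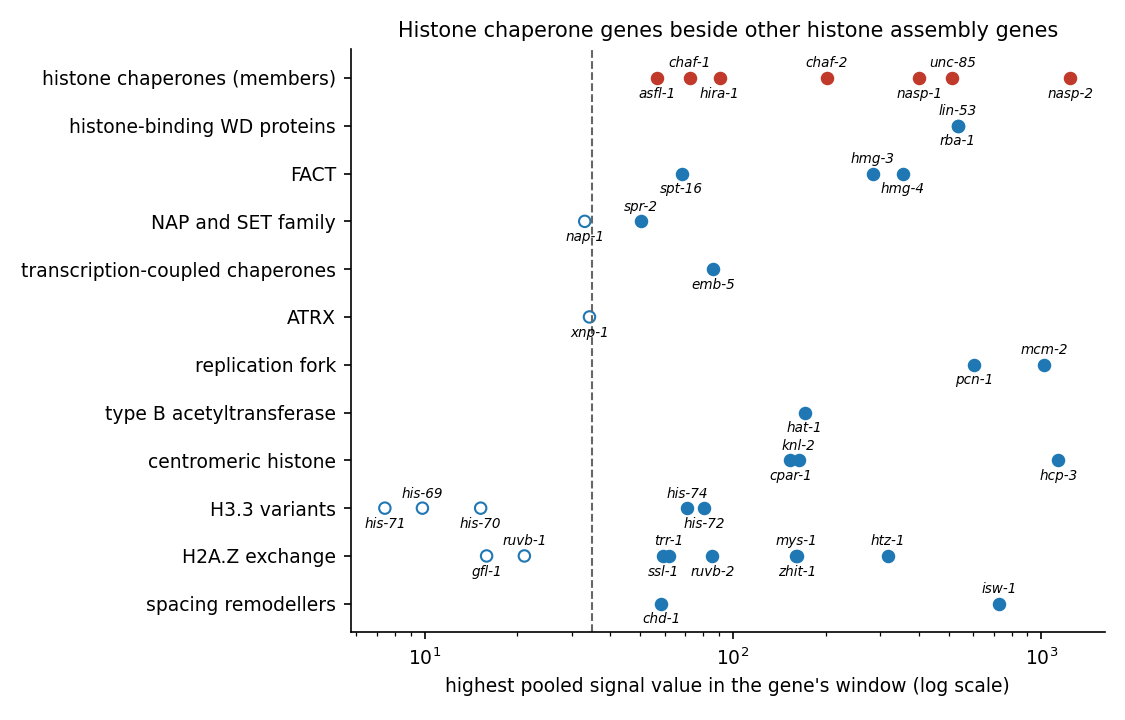
Highest pooled signal value in each gene's window (log scale), for the 7 members in red and 30 other histone assembly genes in blue, grouped by function; filled points had an optimal summit and open points did not. The dashed line marks 34.9, the lowest signal of the optimal list, with 7 open points to its left, and the members lie between 56.9 and 1242.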

How the data were processed

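The authors deposited peak lists in the narrowPeak format with 10 columns, per the description filed with each sample. The authors' signal value (column 7) is never negative and its scale is not stated. It was used only to rank and describe regions within a list. Column 9 of the deposited lists holds a −log10 q-value, which was not used for calls; 4 of the 7 lead peaks shared the highest pooled −log10 value, 2.92, with 417 other optimal peaks. Per the same description there was 1 relaxed list per replicate, 1 pooled list and an optimal list derived from these by irreproducible discovery rate. Aligner and caller were not given in the sources used here, and nor was any threshold. The optimal regions were the 2498 highest of the pooled list. Lists in ce10 were not used.

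Summits were column 2 plus column 10, written from 1. Genes came from Ensembl release 115 (WBcel235) and bases from RefSeq WBcel235, within whose chromosome lengths all ce11 regions lay. Python 3.11.15 was used, and windows and motif searches were tested on simulated regions. The members and lists were chosen with earlier results of these data known, and no test was made. Named genes were the members, genes sharing their peaks, the 6 assembly genes of highest signal and preset partners, and the neighbours in rank; further assembly genes were named after their values were seen. No region had the same bounds and signal in both replicates. The alternatives were each replicate alone, other windows, a stricter list, overlap in place of summits, the nearest gene only and other motif settings. Depth is unknown, so no interval is given.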

Additional observations from a re-analysis of the deposited data

How the results depend on the processing

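The 7 members with an optimal summit numbered 6 or 7 under 7 alternatives. Without replicate 1 there were 6, without replicate 2 there were 7, in the upper 50% of optimal peaks 6, and with each summit given to the nearest protein-coding gene only 6. *asfl-1* was the gene lost each time. The promoter count was 6 to 7. The 5 lead summits with an E2F core became 3 with the longer core, which asks for 1 more base, and were 5 with 100 bp to either side and with the summit of either replicate alone. The 23 assembly genes ranged from 17, in the upper 50% of peaks, to 24, without replicate 1. No paired analysis was possible because there was 1 group. Signal values carry no error, and 2 replicates of unknown depth limit precision. Whether binding came from tagged EFL-1 in the germline or elsewhere cannot be told apart in whole worms.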
